A study of Mus musculus with 18 samples.

Results

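The 10 genes described here are the mouse Toll-like receptors Tlr1, Tlr2, Tlr3, Tlr4, Tlr5, Tlr6, Tlr7, Tlr8, Tlr9 and Tlr13. They were taken by name from a table of read counts for 54532 genes, and all 10 are in it. The counts come from sorted cells of retinas of rd1 mice on the FVB background at postnatal day 30, whose mutation leads to early loss of the rods. Mice had received subretinal AAV8-GFP alone, the control, or AAV8-GFP with AAV8-TGFB1, so every group carries the rd1 mutation and the GFP virus. Retinas were dissociated with papain, and antibody staining and sorting gave microglia (7 GFP and 7 TGFB1 libraries) and the remaining cells, called non-microglia (2 GFP and 2 TGFB1 libraries). The labels name neither the promoter that drives each transgene nor the animals behind a library, so p-values measure how far these libraries spread, part of which may be technical.

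Toll-like receptors recognise conserved microbial molecules and some of the host's own nucleic acids. Tlr1, Tlr2, Tlr4, Tlr5 and Tlr6 act mainly at the cell surface on lipids, lipopeptides and flagellin, while Tlr3, Tlr7, Tlr8, Tlr9 and Tlr13 act in endosomes on RNA or DNA. Most signal through the adaptor Myd88 and the Irak kinases to NF-kappaB, whereas Tlr3 uses the adaptor Ticam1 (TRIF), and Tlr4 uses both. In the nervous system microglia are known as the main cells that carry them.

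Total counts per library ran from 1582451 to 3064027. Levels are given as CPM, counts scaled to 1000000 per library after TMM adjustment, and levels of different receptors are compared only as CPM per kilobase of exon. Tgfb1 had no counts in the GFP non-microglia, 402 and 462 counts in the TGFB1 non-microglia, and 17 to 59 counts in the TGFB1 microglia against 18 to 40 in the GFP microglia. The summed level of 10 microglia markers was 37475 to 46353 CPM in the 14 microglia libraries and 59.1 to 70.4 CPM in non-microglia. Markers of Mueller glia, the supporting glia of the retina, summed to 366 to 960 CPM in GFP microglia and 291 to 791 CPM in TGFB1 microglia, with none of the 10 markers at 0, against 14493 CPM or more in non-microglia. Markers of monocytes and neutrophils summed to 21.2 CPM or less in every microglia library: of the 8 markers, Ly6g was at 0 in all GFP microglia libraries, and Ly6c2, S100a8 and S100a9 in all TGFB1 microglia libraries.

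Microglia of the degenerating retina had counts for every receptor, at levels that differed widely. Tlr2, the surface receptor for bacterial lipopeptides, and Tlr13, the endosomal receptor for bacterial ribosomal RNA, stood at the top, at 86.4 ± 13.2 and 83.1 ± 15.2 CPM per kb (mean ± SD, n = 14 microglia libraries). Tlr2 exceeded Tlr13 in 10 of 14 libraries, so their order does not stand out from the spread between libraries. Tlr7, the sensor of RNA rich in uridine and guanosine, followed at 37.6 ± 3.15 CPM per kb and lay below Tlr13 in 14 of 14 libraries. The co-receptors of Tlr2 were lower than Tlr2 itself: Tlr6, its partner for diacylated lipopeptides, was at 24.5 ± 3.98 CPM per kb, and Tlr1, its partner for triacylated ones, at 17.3 ± 2.66. Tlr6 lay above Tlr1 in 14 of 14 libraries. The DNA sensor Tlr9 was at 14.4 ± 2.51, the lipopolysaccharide receptor Tlr4 at 12.1 ± 1.71 and the sensor of paired-strand RNA, Tlr3, at 8.96 ± 2.07 CPM per kb. These neighbours were close, since Tlr1 exceeded Tlr9 in 12, Tlr9 exceeded Tlr4 in 11 and Tlr4 exceeded Tlr3 in 11 of the 14 libraries. Tlr5, the flagellin receptor, and Tlr8, a second endosomal RNA receptor, were barely detected, at 0.486 ± 0.273 and 0.291 ± 0.318 CPM per kb. Tlr5 had 0 to 9 counts and Tlr8 0 to 9 counts per microglia library, and neither passed the filter on low counts in any comparison. Of the mouse receptors outside these 10, Tlr12 was at 7.61 ± 1.603 CPM per kb and Tlr11 had 8 counts over all 14 microglia libraries.

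**Figure D1:**
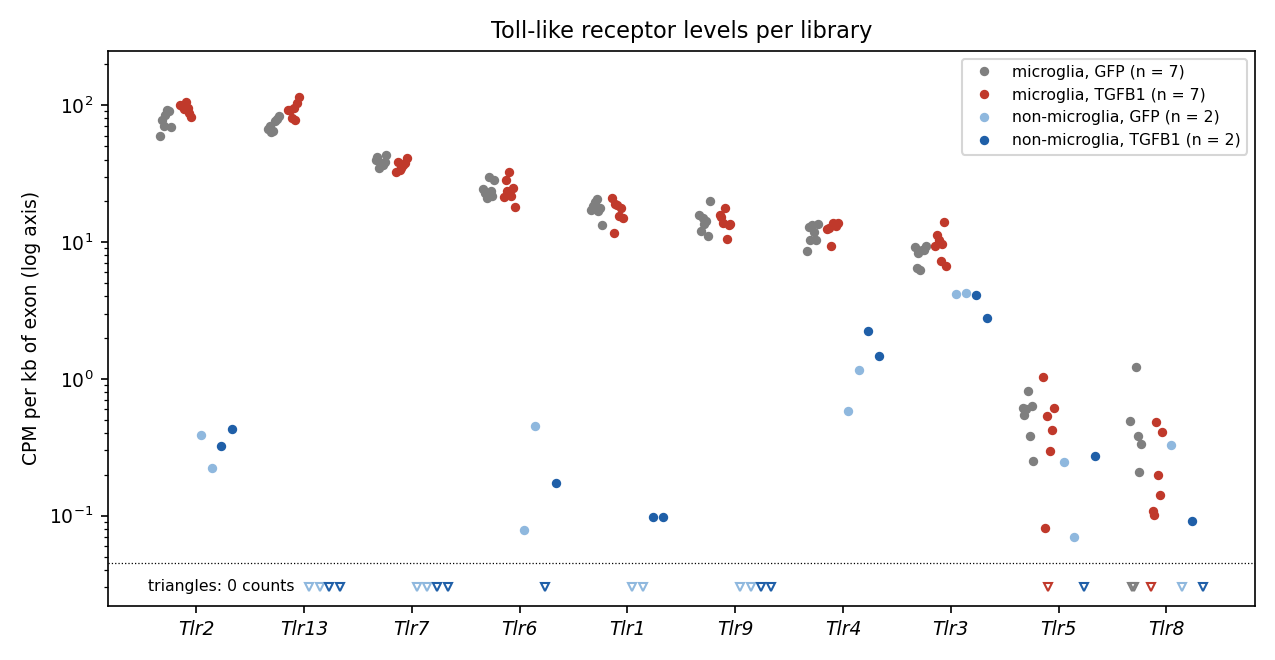
Level of each receptor in every library, in CPM per kb of exon on a log axis, with 1 point per library coloured by cell fraction and treatment and triangles for libraries with 0 counts. The microglia points of Tlr2 and Tlr13 lie highest, Tlr5 and Tlr8 lie lowest, and in non-microglia Tlr3 and Tlr4 lie above the other receptors.

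The spread between microglia libraries also differed by receptor. Tlr7 varied least, with a coefficient of variation of 8.38% over the 14 libraries, and Tlr3 varied most among the 8 receptors that passed the filter, with 23.1%. These values pool both treatments. Tlr3 was at 42.4 ± 6.66 CPM in GFP and 50.9 ± 12.8 CPM in TGFB1 microglia. Among GFP libraries alone Tlr9, at 50.5 ± 10.1 CPM, varied more for its level than Tlr3. Tlr3 rests on 67 to 149 counts per microglia library and Tlr7 on 210 to 460, so counting error alone is larger for Tlr3. How much of the spread it makes up was not tested. Tlr1 and Tlr6 are neighbours on chromosome 5 (GRCm38, 64924679 to 64933563 and 64952031 to 64960097, both on the minus strand), and 15.4% of the 50-base stretches of Tlr1 exons and 12.3% of those of Tlr6 also occur in other genes, mostly in each other. Reads from those stretches cannot be assigned by sequence, so the separate levels of these 2 genes are uncertain. Tlr7 (167304929 to 167330558) and Tlr8 (167242696 to 167264329) are also neighbours, on chromosome X, but share no such stretch. Tlr13 lies elsewhere on chromosome X, from 106143204 to 106160493. The exons of Tlr3 (chromosome 8, 45395665 to 45411080) overlap the antisense gene Gm45542 over 7.32% of their length. Whether the counting used strand is not stated in the labels, so reads from this stretch cannot be told apart. Gm45542 had 0 to 6 counts per microglia library, but the same uncertainty affects this count, so it sets no limit for Tlr3.

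Promoter sequence was available for 8 of the 10 receptors (RefSeq, GRCm38.p6, from 250 bases before to 50 bases after a transcription start), and 10 such windows were searched on both strands for 6 short motifs. Searched were GAGGAAGT (PU.1, a transcription factor that defines myeloid cells), GGAA and GAAA with 2 bases between (the composite of PU.1 and interferon regulatory factors), GAAA and GAAA with 2 bases between (the interferon-stimulated response element, which can overlap the composite), GGGA and TTTCC with 1 base between (NF-kappaB), GTCTAGAC (the SMAD binding element of TGF-beta signalling) and TATAAA (the TATA box). Shown are the receptor that rose with TGFB1 in microglia (Tlr13), the 2 receptors whose window holds the PU.1 letters (Tlr1 and Tlr9) and the receptor with the highest level in non-microglia (Tlr3), with motif matches in capitals and everything else in lower case.
Tlr13, chrX:106143025-106143324, plus strand: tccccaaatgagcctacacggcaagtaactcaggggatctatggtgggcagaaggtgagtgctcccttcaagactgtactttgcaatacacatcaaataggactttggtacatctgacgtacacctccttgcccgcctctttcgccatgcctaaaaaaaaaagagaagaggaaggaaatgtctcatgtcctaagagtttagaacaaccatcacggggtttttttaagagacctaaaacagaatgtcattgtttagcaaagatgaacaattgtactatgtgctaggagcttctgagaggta
Tlr1, chr5:64933509-64933808, minus strand: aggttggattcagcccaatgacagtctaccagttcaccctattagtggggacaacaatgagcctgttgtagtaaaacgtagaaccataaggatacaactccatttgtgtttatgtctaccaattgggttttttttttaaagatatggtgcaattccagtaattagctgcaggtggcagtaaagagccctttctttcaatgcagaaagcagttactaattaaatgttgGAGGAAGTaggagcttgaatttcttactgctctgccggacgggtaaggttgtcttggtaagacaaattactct
Tlr9, chr9:106222348-106222647, plus strand: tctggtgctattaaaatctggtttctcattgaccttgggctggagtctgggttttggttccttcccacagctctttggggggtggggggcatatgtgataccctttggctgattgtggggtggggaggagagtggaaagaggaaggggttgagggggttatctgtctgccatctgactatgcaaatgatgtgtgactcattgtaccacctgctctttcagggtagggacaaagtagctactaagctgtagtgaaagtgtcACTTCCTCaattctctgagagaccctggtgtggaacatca
Tlr3, chr8:45410331-45410630, minus strand: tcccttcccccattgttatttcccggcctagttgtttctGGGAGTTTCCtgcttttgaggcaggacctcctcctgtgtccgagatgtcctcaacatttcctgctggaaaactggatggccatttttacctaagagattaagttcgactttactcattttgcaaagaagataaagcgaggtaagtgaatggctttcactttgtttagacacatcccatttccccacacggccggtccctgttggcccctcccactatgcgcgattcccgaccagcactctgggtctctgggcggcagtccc
The capitals mark the PU.1 letters in Tlr1, their reverse complement just after the start in Tlr9, and the NF-kappaB letters in Tlr3, while the Tlr13 window holds none of the 6 motifs. Of 32544 distinct promoter windows, 3.11% hold the PU.1 letters and 0.415% the NF-kappaB letters. The interferon element, present in 3.45% of windows, was found in 1 of the Tlr6 windows, and the TATA letters, present in 13.6%, in Tlr6 and Tlr8. No receptor window held the PU.1 composite (2.73% of all windows) or the SMAD element (0.215%). The number of CG pairs per window ran from 0 in Tlr9 and 1 in Tlr8 to 11 in Tlr2, beside a median of 7 over all windows.

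Most receptors were found in microglia and hardly at all outside them, with Tlr3 as the clearest exception. In GFP retinas the endosomal receptors Tlr7, Tlr9 and Tlr13 and the surface receptor Tlr1 had 0 counts in both non-microglia libraries. Against the level that 3 counts give in a non-microglia library (1.01 CPM at most), Tlr13 was at least 308-fold higher in microglia, Tlr7 at least 157-fold, Tlr1 at least 58.5-fold and Tlr9 at least 50.03-fold. These bounds and the intervals below cover counting error only. Tlr2 had 4 and 2 counts in the non-microglia libraries against 305 to 724 in microglia, a ratio of 251.4 (95% counting interval 115 to 685). Tlr6 had 1 and 5 counts, and its ratio of 97.0 (44.5 to 265) rests on these few counts. The level of Tlr2 in non-microglia, from 6 counts, was 0.394% of that in microglia, while Tlr4 stood at 7.49% and Tlr3 at 51.8%. For the summed microglia markers this share was 0.166%. That share is a sum over 10 markers, of which Fcrls was at 0 in both GFP non-microglia libraries, so it need not hold for any single gene.

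In GFP retinas Tlr3 was measured at 21.7 and 22.2 CPM in the 2 non-microglia libraries and at 32.4 to 48.6 CPM (median 45.5) in the 7 microglia libraries. The groups did not overlap, as for 29.0% of the 15321 genes tested, and Tlr3 was higher in microglia by 0.95 on the log2 scale (SE 0.23), with an edgeR adjusted p of 0.00103. Tlr4 was at 3.23 and 6.40 CPM in non-microglia and 47.7 to 74.9 CPM (median 66.2) in microglia, again without overlap. Its edgeR log2 difference was 3.75 (SE 0.26, adjusted p = 6.74e-12), and leaving out GFP non-microglia replicate 1 or 2 gave 3.36 or 4.32. Tlr5 had 4 and 1 counts in non-microglia and 3 to 8 in microglia, a ratio of 3.29 (1.30 to 10.7). The mean level of Tlr8 lay under the highest level that 3 counts give in a library, in both fractions. Single libraries went above 3 counts, with 9 in GFP microglia replicate 5 and 4 in GFP non-microglia replicate 1.

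The TGFB1 retinas are other libraries, compared in the same way. Tlr7, Tlr9 and Tlr13 again had 0 counts in both non-microglia libraries, and in microglia they were at least 152-fold, 50.8-fold and 413-fold higher. Tlr1 and Tlr6 had 2 counts each over both non-microglia libraries, with ratios of 173 (47.8 to 1433) and 283 (78.3 to 2342), and Tlr2 had 7, with a ratio of 252 (122 to 627). Tlr3 was at 21.2 and 14.6 CPM in non-microglia and 34.7 to 73.0 CPM in microglia, without overlap, as for 30.0% of genes (edgeR log2 difference 1.51, SE 0.24, adjusted p = 7.49e-06). Tlr4 was at 12.4 and 8.12 CPM in non-microglia and 51.8 to 76.2 CPM in microglia (edgeR log2 difference 2.76, SE 0.23, adjusted p = 1.90e-10). In both treatments 8 of 8 receptors tested were higher in microglia, beside 29.9% of 15321 genes in GFP and 30.8% in TGFB1 retinas. A receptor near 0 in non-microglia could pass the filter only through the microglia libraries, so this count is a description. In bulk libraries a receptor in fewer cells and less of its RNA per cell cannot be told apart.

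Genes that serve the receptors are given beside the shares of all genes called: 29.9% higher and 34.2% lower in microglia of GFP retinas, and 30.8% higher and 34.4% lower in TGFB1 retinas. Of 12 tested partners and chaperones, 11 were higher in microglia of GFP retinas, among them Unc93b1, which carries the endosomal receptors out of the endoplasmic reticulum (1538 ± 77.2 against 4.66 ± 0.881 CPM), Pld4, an exonuclease that degrades nucleic acids in endolysosomes (1913 ± 127 against 0.315 ± 0.0304), and Cd14, the lipopolysaccharide co-receptor (609 ± 36.9 against 0.294 ± 0.415). In TGFB1 retinas the same 11 were higher and the fatty acid receptor Cd36 was lower, at 8.79 ± 4.06 against 17.6 ± 1.43 CPM, a call lost when either TGFB1 non-microglia library was left out. Of the 4 endosomal proteases 3 were higher in both treatments, led in GFP retinas by Ctss (10656 ± 812 against 0.147 ± 0.208 CPM), Lgmn (4350 ± 282 against 119 ± 5.86) and Ctsb (4820 ± 409.8 against 483 ± 0.481).

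Among the shared signalling genes calls went both ways. Of 20 tested adaptors, kinases and transcription factors, 11 were higher in GFP microglia and 2 lower, with a median log2 difference of 0.53 against -0.06 over all genes. Higher were the transcription factor Irf5 (log2 difference 6.24, SE 0.15), the kinase Irak4 (1.99, SE 0.15) and the Tlr4 adaptor Ticam2, each with an edgeR adjusted p below that of Tlr3. Ticam2 had 2 and 0 counts in the non-microglia libraries, a ratio of 189 (95% counting interval 52.2 to 1564), and its log2 difference was 6.55 without GFP non-microglia replicate 2 and 10.12 without replicate 1. Irak2, a kinase of the same family, was lower in microglia (141 ± 15.3 against 239 ± 11.3 CPM), as was Tab1 (30.1 ± 5.14 against 56.9 ± 10.04), an activator of the kinase Map3k7. Of 11 negative regulators 6 were higher in GFP microglia, among them the deubiquitinases Tnfaip3 and Cyld (the call for Cyld was lost without GFP non-microglia replicate 2, adjusted p = 0.0602 with edgeR), and 2 were lower, Tollip (113 ± 12.7 against 174 ± 12.5 CPM) and the axonal degeneration factor Sarm1 (10.8 ± 3.58 against 52.2 ± 3.84). Of 11 inducible targets 8 were higher, with the cytokine Il1a at 72.7 ± 12.5 against 0.294 ± 0.415 CPM and the chemokine Ccl3 at 113 ± 15.9 CPM against 0 counts in non-microglia. Only Nfkbiz was lower among these targets (79.9 ± 15.0 against 104 ± 7.63 CPM, edgeR adjusted p = 0.0394), a call lost in 5 of the 9 fits that left out 1 library.

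With TGFB1, Tlr13 rose in microglia by a fold of 1.29, and no other receptor passed the test in either direction. Tlr13 was measured at 275 to 362 CPM (median 305) in the 7 GFP libraries and at 333 to 495 CPM (median 395) in the 7 TGFB1 libraries, that is 311 ± 34.2 against 404 ± 55.6 CPM. All 7 TGFB1 libraries lay above the GFP mean, but the groups overlapped, with the lowest 2 TGFB1 libraries below the highest GFP library. The edgeR log2 fold change was 0.37 (SE 0.08, 95% interval of the fold 1.16 to 1.44) with an adjusted p of 0.0344. Over all genes tested 0.237% were called higher (26 of 10970) and 0.0729% lower, and among the 8 receptors tested 1 was higher and 0 lower.

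The call for Tlr13 was lost in 10 of the 14 fits that left out 1 library (adjusted p from 0.0141 to 0.110 over the 14), while the log2 fold change stayed between 0.32 and 0.41. These fits, like the main one, take the libraries as unpaired. A fit with a replicate block is given in the closing section. The Mueller glia markers, whose ranges given above overlap between the treatments, were added as a covariate, and the edgeR log2 fold change of Tlr13 was then 0.29 (adjusted p = 0.189). Without the 3 libraries highest in those markers, GFP replicates 2 and 5 and TGFB1 replicate 6, it was 0.36 (adjusted p = 0.0575).

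**Figure D2:**
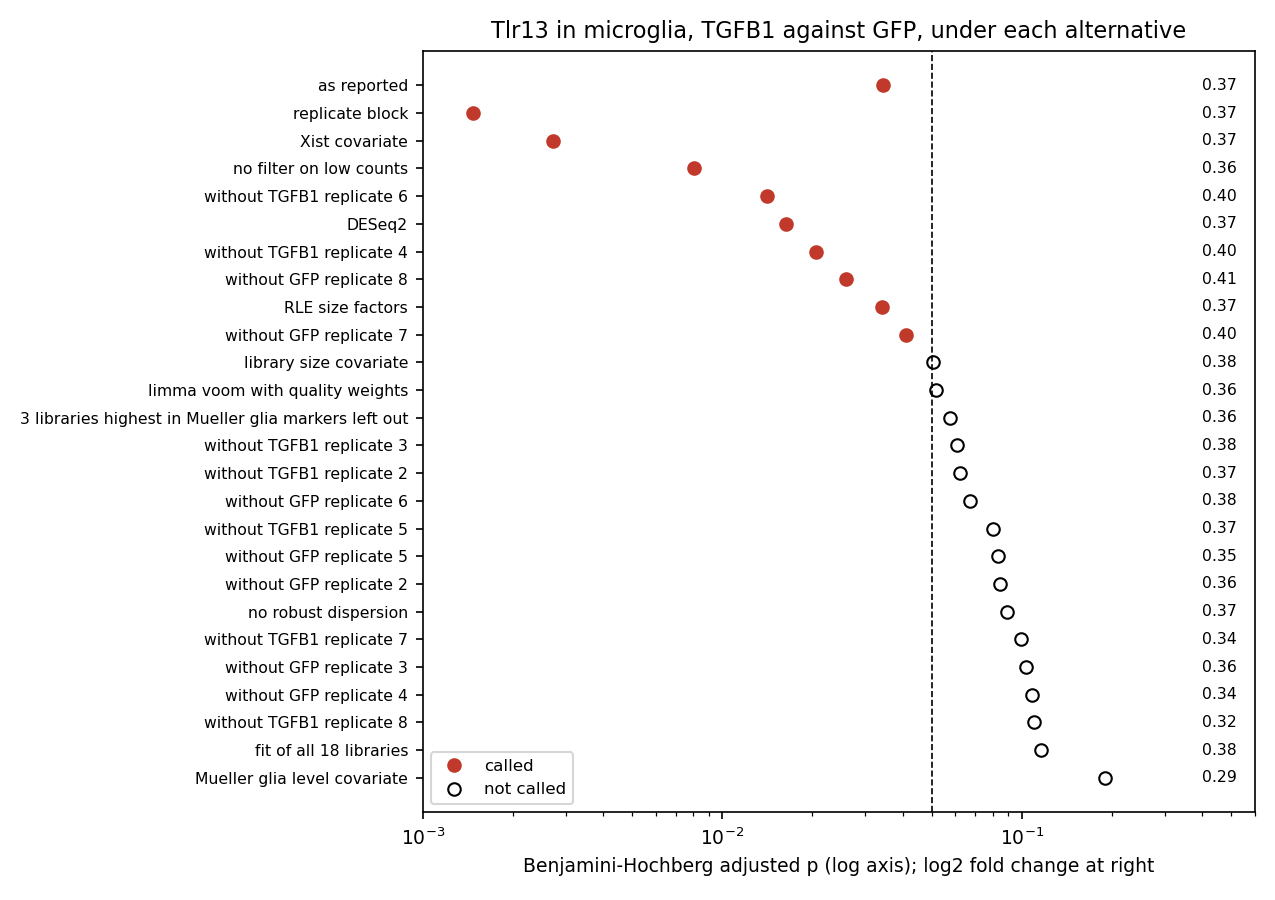
Benjamini-Hochberg adjusted p of Tlr13 for TGFB1 against GFP in microglia under each processing alternative, on a log axis, with the log2 fold change at the right and the threshold of 0.05 as a dashed line. The fold change is positive in all of them, between 0.29 and 0.41, while open points right of the line are fits in which the call was lost.

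Tlr2 was the receptor next in line. It was measured at 180 to 277 CPM (median 235) in GFP and 248 to 320 CPM (median 288) in TGFB1 microglia. All 7 TGFB1 libraries were above the GFP mean and the groups overlapped. The edgeR log2 fold change was 0.28 (SE 0.08) with an unadjusted p of 0.00170 and an adjusted p of 0.226, which does not pass. Its partners had edgeR log2 fold changes of -0.07 for Tlr1 (SE 0.12, adjusted p = 0.962) and -0.02 for Tlr6 (SE 0.11, adjusted p = 0.994), and the difference between the receptors was not tested. Per kilobase, Tlr2 stood at 3.49 to 5.49 times Tlr1 in GFP libraries and at 4.78 to 8.46 times in TGFB1 libraries, ranges that overlap.

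**Figure D3:**
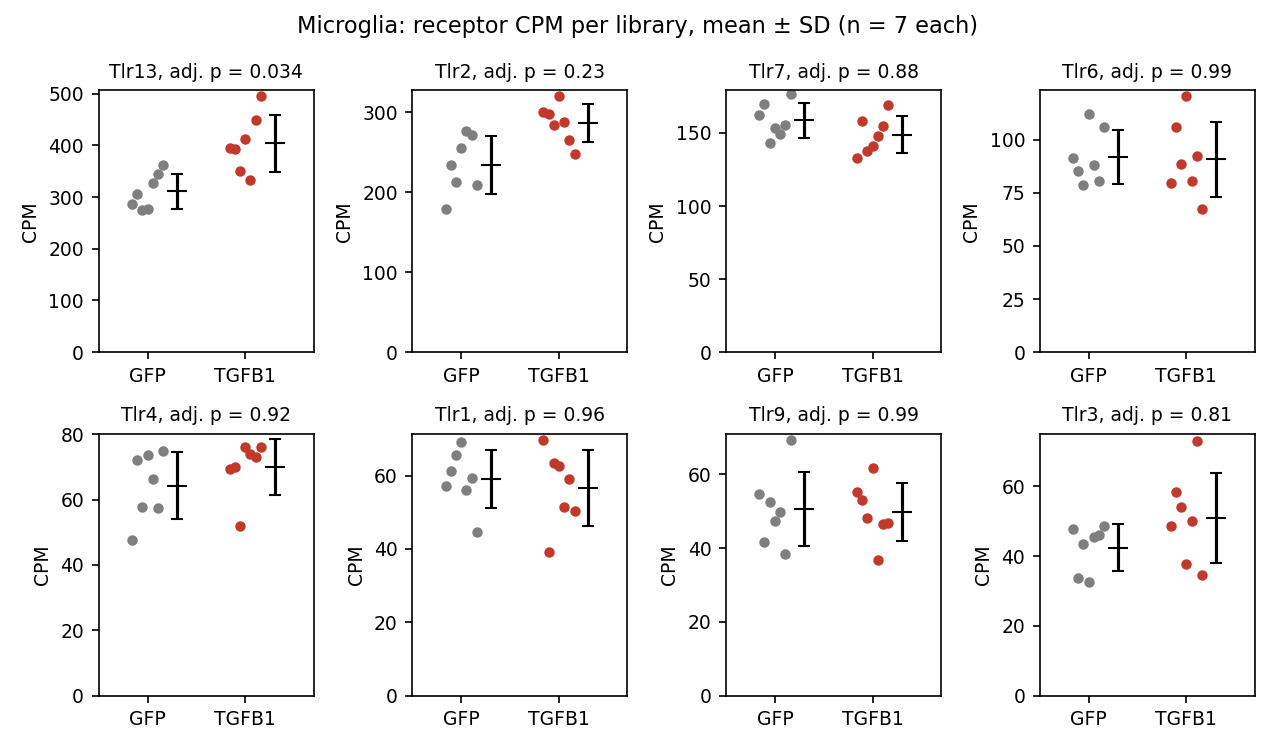
CPM of the 8 tested receptors in each of the 14 microglia libraries, GFP and TGFB1 side by side, with the mean and SD as a bar beside the points and the edgeR adjusted p above each panel. The TGFB1 points of Tlr13 and Tlr2 lie mostly above the GFP points, and the groups overlap in all 8 panels.

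The other endosomal receptors and Tlr4 did not pass the test. Tlr7 was at 143 to 177 CPM (median 156) in GFP and 133 to 169 CPM (median 148) in TGFB1 microglia, and 6 of 7 TGFB1 libraries lay below the GFP mean (edgeR log2 fold change -0.10, SE 0.07, adjusted p = 0.881). Tlr9 ran from 38.4 to 69.3 CPM in GFP and 36.7 to 61.7 CPM in TGFB1 libraries, a log2 fold change of -0.02. Tlr3 was at 32.4 to 48.6 CPM (median 45.5) in GFP and 34.7 to 73.0 CPM (median 50.1) in TGFB1 libraries, with 5 of 7 above the GFP mean (log2 fold change 0.26, SE 0.14, edgeR adjusted p = 0.813). At these counts the 95% interval of the Tlr3 fold ran from 0.983 to 1.45. Tlr4 was at 47.7 to 74.9 CPM (median 66.2) in GFP and 51.8 to 76.2 CPM (median 73.0) in TGFB1 libraries (log2 fold change 0.11, SE 0.11, edgeR adjusted p = 0.918). Tlr5 had 41 counts over the GFP and 29 over the TGFB1 libraries, and Tlr8 had 20 and 11, too few for a test. The median log2 fold change of the 8 tested receptors was 0.05, beside 0.00 over all genes.

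Tlr13 and Tlr7, both on chromosome X and both endosomal RNA receptors, had unequal log2 fold changes, a pair set side by side only after their values were seen. Per kilobase, Tlr13 stood at 1.68 to 2.09 times Tlr7 in GFP libraries (mean 1.86 ± 0.180) and at 2.13 to 2.83 times in TGFB1 libraries (2.58 ± 0.272). The 2 ranges do not overlap. In how many other gene pairs this holds was not counted, and no test was made because of how the pair was chosen. Xist RNA, made from an inactive X chromosome, was found in 6 of the 14 microglia libraries (replicates 2, 7 and 8 of each treatment) with 1291 counts or more, and in the others at 2 counts or fewer. Tlr13 was at 287 to 362 CPM in the GFP and 395 to 495 CPM in the TGFB1 libraries with Xist, and at 275 to 328 and 333 to 412 CPM in those without it. Libraries with and without Xist were compared at equal treatment, without the 3 libraries highest in Mueller glia markers. Those left out are GFP replicate 2, which has Xist, GFP replicate 5 and TGFB1 replicate 6. In this fit Tlr13 differed by 0.24 on the log2 scale (SE 0.07, higher with Xist, edgeR adjusted p = 0.0841), which does not pass. Of 11362 genes 0.889% passed in it, and Tlr7 differed by 0.10 (edgeR adjusted p = 0.694).

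**Figure D4:**
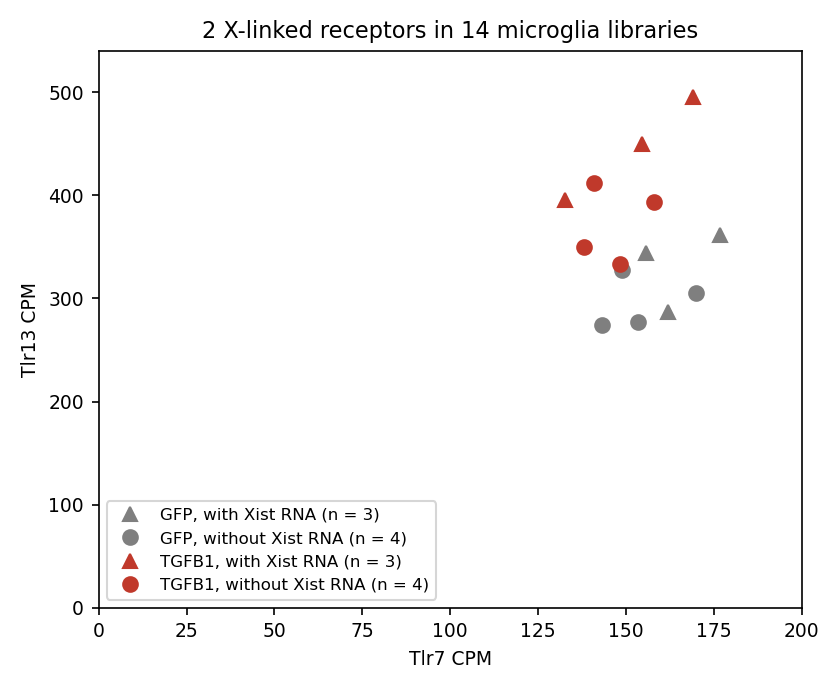
Tlr13 CPM against Tlr7 CPM in the 14 microglia libraries, coloured by treatment, with triangles for libraries with Xist RNA and circles for those without. The TGFB1 points lie above the GFP points at like Tlr7 levels.

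Of the genes that serve the receptors, 1 changed with TGFB1 in microglia. Pld3, an endolysosomal exonuclease that removes nucleic acids on which Tlr9 acts, rose from 412 ± 46.2 to 529 ± 52.5 CPM (edgeR log2 fold change 0.36, SE 0.07, adjusted p = 0.0154). It was the only call among 12 tested partners and chaperones, and was lost without GFP replicate 3, GFP replicate 4 or TGFB1 replicate 8 (adjusted p = 0.0556, 0.0526 and 0.0687), with the Mueller glia covariate (0.0982) and in the fit of all 18 libraries (0.0611). None of the 4 endosomal proteases passed: Ctss, the closest, was at 12006 ± 919 against 10656 ± 812 CPM (log2 0.17, edgeR adjusted p = 0.279). None of 19 adaptors, kinases and transcription factors passed, with Tab2 closest (log2 -0.27, edgeR adjusted p = 0.648), and none of 11 negative regulators, with the repressor Atf3 closest (log2 0.57, edgeR adjusted p = 0.428), which passed in 1 of 25 alternatives, that with no filter on low counts (adjusted p = 0.00202). None of 9 inducible targets passed, although 8 of 9 had a positive log2 fold change, with a median of 0.18 against 0.00 over all genes. Ccl4, a chemokine and the closest of them, was at 105 ± 18.3 against 69.0 ± 14.4 CPM (log2 0.60, SE 0.14, edgeR adjusted p = 0.0710), and it passed in 5 of 25 alternatives, among them DESeq2 (adjusted p = 0.0145) and the fit without GFP replicate 2 (0.0206).

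**Figure D5:**
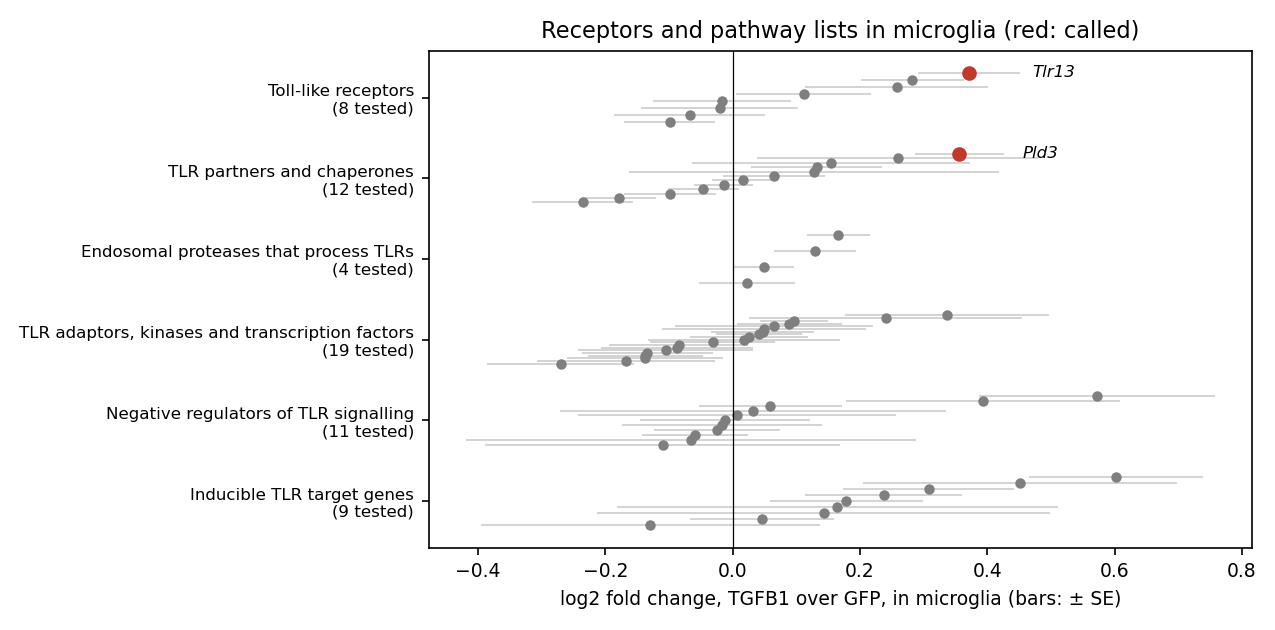
Log2 fold change of TGFB1 over GFP in microglia for each tested receptor and each tested member of 5 pathway lists, with the standard error as a bar and called genes in red. Tlr13 and Pld3 are the called genes, and the inducible targets lie mostly to the right of 0 without a call.

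In non-microglia only Tlr3 and Tlr4 had enough counts for a test, and neither passed. Tlr4 was at 3.23 and 6.40 CPM in the GFP libraries (11 and 19 counts) and at 12.4 and 8.12 CPM in the TGFB1 libraries (38 and 25 counts). The TGFB1 libraries lay above the GFP libraries, as for 17.5% of the 13598 genes tested, and the log2 fold change was 1.11 (SE 0.44, unadjusted p = 0.0194, edgeR adjusted p = 0.515). Leaving out 1 library at a time gave log2 values from 0.68, without GFP replicate 1, to 1.67, without GFP replicate 2. Tlr3 was at 21.7 and 22.2 CPM in GFP and 21.2 and 14.6 CPM in TGFB1 libraries, with both TGFB1 libraries lower, as for 18.9% of genes (log2 -0.29, SE 0.26, edgeR adjusted p = 0.912). Without TGFB1 replicate 2 the log2 value of Tlr3 was -0.04. Of all genes tested 0.338% were called higher and 0.0515% lower.

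Microglia markers summed to 67.0 to 70.4 CPM in the GFP and 59.1 to 61.3 CPM in the TGFB1 non-microglia. The macrophage markers summed to 9.40 to 12.1 CPM in GFP and 14.6 to 18.3 CPM in TGFB1 non-microglia, with Cbr2 at 0 in the GFP and Mrc1, Pf4 and Cbr2 at 0 in the TGFB1 libraries. Their part in the Tlr4 values was not tested. None of the pathway genes passed in non-microglia, where Sarm1 came closest (74.1 ± 6.41 against 52.2 ± 3.84 CPM, log2 0.51, edgeR adjusted p = 0.230). Ly96, which binds lipopolysaccharide together with Tlr4, was at 2.28 ± 0.915 against 4.79 ± 1.54 CPM, with log2 -1.06 and an edgeR adjusted p of 0.757.

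Whether the effect of TGFB1 differed between the fractions was tested as an interaction over all 18 libraries, in which 0.0131% of 15321 genes passed and no receptor did. The test bears on Tlr3 and Tlr4 only, since the other receptors are at or near 0 in non-microglia. For Tlr4 the effect in microglia minus that in non-microglia was -0.99 on the log2 scale (SE 0.36, unadjusted p = 0.0117) and for Tlr3 it was 0.56 (SE 0.33, unadjusted p = 0.102), each with an edgeR adjusted p of 0.9999. That Tlr13 rose in microglia is thus not shown to be particular to them, as the gene had no counts elsewhere to compare.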

How the data were processed

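Polyadenylated RNA of sorted cells was made into libraries by a modified Smart-Seq2 protocol without molecular identifiers, per the labels' protocols. The authors deposited 1 table of raw counts per gene and library, made with STAR and featureCounts on GRCm38.p6 per the submitters' processing notes, which also name DESeq2. Their versions, annotation and strand setting: not given in the sources used here. Identifiers were matched to GENCODE M21 (54409 of 54532 genes).

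From these counts edgeR 4.0.16 (R 4.3.3) was run with TMM factors, filterByExpr and robust quasi-likelihood F tests, two-sided, with calls made where the Benjamini-Hochberg adjusted p over all tested genes was under 0.05. Treatments were compared within each fraction, and fractions and the interaction in a fit of all 18 libraries. Standard errors are the log2 fold change divided by the square root of F. Levels are CPM as mean ± SD. Against a group at 0, the floor is 3 counts per library, and counting intervals are 95%. Exon overlaps were found with bedtools 2.31.1.

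The receptors, the pathway and marker lists and the tests were chosen with earlier results of these data known. Named are all receptors and, of each pathway list and comparison, up to 3 called genes per direction with the smallest p, or the closest gene where none passed. Any other gene was chosen after its values were seen. Alternatives were RLE size factors, no low-count filter, no robust dispersion, DESeq2 1.42.0, limma voom (3.58.1), a replicate block, the fit of all libraries, covariates for Xist, Mueller glia markers and library size, and leaving out each library. Leaving out the 3 libraries highest in Mueller glia markers was added after the data were seen. On simulated counts the test recovered 80% of genes changed 2-fold in the microglia comparison (10970 genes), 56% in non-microglia (13598) and 37% between fractions in GFP retinas (15321). Changes smaller than 2-fold, such as that of Tlr13 in microglia, were not simulated, so these shares do not apply to them.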

Additional observations from a re-analysis of the deposited data

Results flagged for a closer look

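In 2 of the 20 sets of 7 microglia libraries examined for a library that stands apart, the gap of the extreme library to its nearest neighbour was larger than Dixon's 95% limit of 0.568 of the range, and chance alone gives about 1 in 20. TGFB1 replicate 4 had the lowest Tlr4 level, 51.8 CPM, while the nearest library was at 69.3 CPM. GFP replicate 5 had the highest Tlr8 level, 4.36 CPM from 9 counts, while the nearest library was at 1.77 CPM, near the level of 3 counts.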

How the results depend on the processing

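In microglia 26 genes were called higher and 8 lower, and 1 receptor higher. The counts were 11 and 4 in the fit of all 18 libraries, 13 higher with the Mueller glia covariate, 40 and 16 with the Xist covariate, and 13, 13, 25 and 18 lower with DESeq2, with library size as a covariate, with no filter and without the 3 libraries highest in Mueller glia markers. The receptor count was 0 in the fit of all 18 libraries (adjusted p of Tlr13 0.116), with limma voom (0.0519), with no robust dispersion (0.0891), with the Mueller glia or library size covariate (0.189 and 0.0506) and without those 3 libraries (0.0575). Leaving out each library gave 10 to 26 genes higher, 5 to 14 lower and 0 to 1 receptors. In non-microglia, 46 higher and 7 lower became 4 and 0 in the fit of all libraries, 86 and 16 with no filter, 4 lower with DESeq2, and 22 to 87 and 6 to 33 on leaving out each library. DESeq2 gave no adjusted p for Tlr3 and Tlr4 there. For the difference of effects, 0 higher and 2 lower became 1 higher with voom, 3 and 9 with no filter, 1 lower with no robust dispersion, and 0 to 1 and 1 to 2 on leaving out each library. The cause of these moves was not tested.

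Log2 values near 0 changed sign: Tlr6 was 0.0073 with voom, 0.022 with the Mueller glia covariate, 0.0019 with the library size covariate and 0.0748 without the 3 libraries, where Tlr9 was 0.0439. On leaving out each library, Tlr1 ran from -0.13 to 0.0114, Tlr6 from -0.0935 to 0.0429, Tlr9 from -0.0811 to 0.0711 and Nfkbiz in non-microglia from -0.43 to 0.0239. Tlr6 between fractions ran from 5.76 to 8.06 in GFP and 7.04 to 10.76 in TGFB1 retinas, the extremes without a non-microglia library.

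The labels give no source for the replicate numbers, so they were not used as pairs. Deviations of libraries with the same number correlated at -0.14 to 0.20 in microglia, 5 of 7 over 0.1. Of the 7 numbers, 2 matched best with themselves (non-microglia -0.07). Xist RNA, however, marked replicates 2, 7 and 8 in each treatment, so microglia libraries with the same number agreed in it. Whether the numbers pair the libraries is thus not settled. With a replicate block 41 genes were higher and 19 lower in microglia, Tlr13 among them (adjusted p = 0.00147), and 89 and 20 in non-microglia.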
